A study of Homo sapiens with 12 samples.

Results

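The genes described here were 9 stress response genes that p53 is known to switch on, MDM2, CDKN1A, GDF15, SESN1, SESN2, TP53I3, TP53INP1, PLK2 and PLK3. They were chosen by name from the 58381 genes of the expression tables, with earlier results of these data known. p53 is a transcription factor that is stabilized by DNA damage, oncogene activity and nutrient stress, and its targets halt the cell cycle, limit growth signaling, buffer oxidative stress, promote cell death or feed back on p53 itself. It binds DNA as a tetramer at a pair of short half-sites near its target genes. All 9 genes were expressed above the low-count filter.

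RNA was sequenced from 12 libraries of the human mast cell leukemia line HMC-1, an established line whose KIT receptor is mutated and constitutively active. All sublines were cultured in medium with fetal bovine serum. In the paper HMC-1.2 and HMC-1.3 showed some growth without serum, unlike HMC-1.1. The subline HMC-1.1 has V560G-KIT, while HMC-1.2 has both V560G-KIT and D816V-KIT. HMC-1.3 was derived from HMC-1.2 by CRISPR/Cas9 repair of V560G, and what remains there is a mono-allelic D816V. HMC-1.3 was represented by clone 1 and clone 2, so each HMC-1.3 group is a single clone that passed through transfection, drug selection and cloning, and effects of the repair cannot be told apart from differences that arose between single cells. Each of the 4 groups had 3 libraries from wells of one subline or clone, so p-values measure the spread between these libraries. The labels name no treatment, and the tables hold no base-level information with which to check the genotypes.

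Libraries, sequenced from paired ends, held between 29225900 and 43181402 assigned fragments (read pairs). Of 13 mast cell markers, HDC, KIT, GATA2 and SRGN were high in every library, and CMA1 and MS4A2 stayed under 1 FPKM (fragments per kilobase of transcript, scaled to sequencing depth) in all 12. Others were low or variable, with FCER1A at 0.12 to 1.27 FPKM, CPA3 at 3.04 to 11.3, HPGDS at 4.12 to 12.6, FCER1G at 1.14 to 97.8 and TPSAB1 at 27.6 to 607. Among the 12 markers tested, 2 rose and 4 fell in each comparison with HMC-1.2, where 7.98% to 11.8% of all genes rose and 7.52% to 8.51% fell. The summed mast cell markers came to 2478 to 2504 FPKM in HMC-1.2 and to 1784 to 1920 FPKM in the other groups, and the part of this shift in the results below was not tested. Markers of other cell types were low, with sums over 4 genes each under 1 FPKM in every library for B cells and fibroblasts, 1.63 to 2.70 FPKM for T cells, 1.60 to 2.57 FPKM for monocytes and 3.18 to 9.50 FPKM for erythroid cells. Of the erythroid markers, 2 could be tested, and 1 rose in both clones and HMC-1.1 relative to HMC-1.2, with medians of 1.32, 1.36 and 1.09 on the log2 scale over the tested pair, while the 1 fibroblast marker tested fell in all 3 comparisons, by 1.11 on the log2 scale in clone 2 and by 1.01 in HMC-1.1. The part of these markers in the results was not tested. One library stood apart: clone 2 replicate 3 held 6.69 FPKM of KRT8 and 7.85 FPKM of KRT18, epithelial keratins that reached at most 0.83 FPKM and 0.15 FPKM in the other 11. In bulk RNA, fewer cells of a kind and less RNA per cell cannot be told apart.

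Of the 9 genes, 2 had an intact pair of p53 half-sites near the annotated gene start in the reference genome, and these are shown because p53 binding is what joins the genes. The search used the p53 consensus half-site, 2 copies side by side without a spacer, with both cores of C, A or T, A or T, G intact and at most 2 mismatches over the 12 other positions, within 2500 bases on each side of the Gencode start. The consensus reads the same on both strands, so 1 search covered both. Capitals mark the cores, and each sequence is 5′ to 3′ on the strand of the gene (hg38).
CDKN1A: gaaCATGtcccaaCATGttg
PLK2: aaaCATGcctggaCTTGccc
GADD45A: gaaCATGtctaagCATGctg
CCNG1: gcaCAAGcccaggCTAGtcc
The CDKN1A pair lay at chr6:36676449-36676468 on the plus strand, across the first annotated base of the gene and partly in an annotated exon, with 2 mismatches, and its position was -2256 from the RefSeq start. The PLK2 pair lay at chr5:58462274-58462293 on the minus strand, at position -2145 from the gene start and outside annotated genes, with 0 mismatches. The sequences of GADD45A and CCNG1, p53 targets outside the 9 that were higher in clone 1 than in HMC-1.2, are shown for comparison. Both lie in introns of their genes, GADD45A at chr1:67686775-67686794 with 1 mismatch and CCNG1 at chr5:163437926-163437945 with 1 mismatch. CCNG1 held another pair at chr5:163439946-163439965, with 2 mismatches and also in an intron. Pairs also lay beside PMAIP1 and TNFRSF10B, each higher than in HMC-1.2 in 1 of the clones by over 1.5-fold. AEN, BTG2, PTP4A1, RRM2B and ZMAT3 held a pair as well, and none passed 1.5-fold in either clone or HMC-1.1 against HMC-1.2. Such a pair was found beside 356 of 15821 tested genes (2.25%), beside 2 of the 9 genes and beside 9 of 26 other p53 targets. In the shorter RefSeq promoters of 300 bases it was found in 41 of 27305 genes (0.15%) and in 0 of the 8 of these genes that had a promoter there. A match is a description of letters in these windows, and for GDF15 the Gencode start lies well upstream of the main transcript.

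Expression was compared as fragment counts scaled to library size (CPM) with factors from the trimmed mean of M values (TMM). The quasi-likelihood test of edgeR was run on 15944 genes and p was adjusted by Benjamini-Hochberg. Rose, fell and changed are used where the adjusted p was below 0.05 and the groups differed by more than 1.5-fold. Levels of different genes were set side by side only per transcript length, as FPKM. Over the 12 libraries CDKN1A (92.4 FPKM) and GDF15 (89.8 FPKM) had the highest mean levels of the 9, MDM2 (39.4 FPKM), SESN2 (35.2 FPKM) and SESN1 (14.1 FPKM) were intermediate, and TP53I3 (6.86 FPKM), PLK3 (5.95 FPKM), TP53INP1 (2.75 FPKM) and PLK2 (2.17 FPKM) were low.

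SESN1, TP53I3 and TP53INP1 were higher, and PLK3 lower, in both HMC-1.3 clones and in HMC-1.1 than in HMC-1.2, each by more than 1.5-fold. MDM2 was higher in clone 2 and, at the 1.5-fold limit, in HMC-1.1. SESN2 rose in clone 1 and HMC-1.1 and not in clone 2, and GDF15 and PLK2 also differed between the clones. CDKN1A did not pass a 1.5-fold change in any comparison. In clone 1 against HMC-1.2, 4 of the 9 genes rose, where 11.8% of all genes tested did, and 1 fell, where 8.18% did. In clone 2 against HMC-1.2, 4 rose (7.98% of all genes) and 1 fell (8.51%). For HMC-1.1 compared with HMC-1.2, 5 rose (10.1% of all genes) and 1 fell (7.52%), with MDM2 among the 5 by a call that DESeq2, limma and several other alternatives did not make. These 3 comparisons share the HMC-1.2 libraries. The 9 genes were chosen with earlier results of these data known, so the shares describe them and are not an independent test. Of the 9 genes, 3 were higher in all 3 comparisons, where 5.16% of all genes were, and 1 was lower in all 3, where 4.58% were. The median log2 fold change of the 9 genes was 0.55, 0.42 and 0.59 in the 3 comparisons in that order, beside 0.01, -0.00 and 0.01 over all genes tested.

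**Figure D1:**
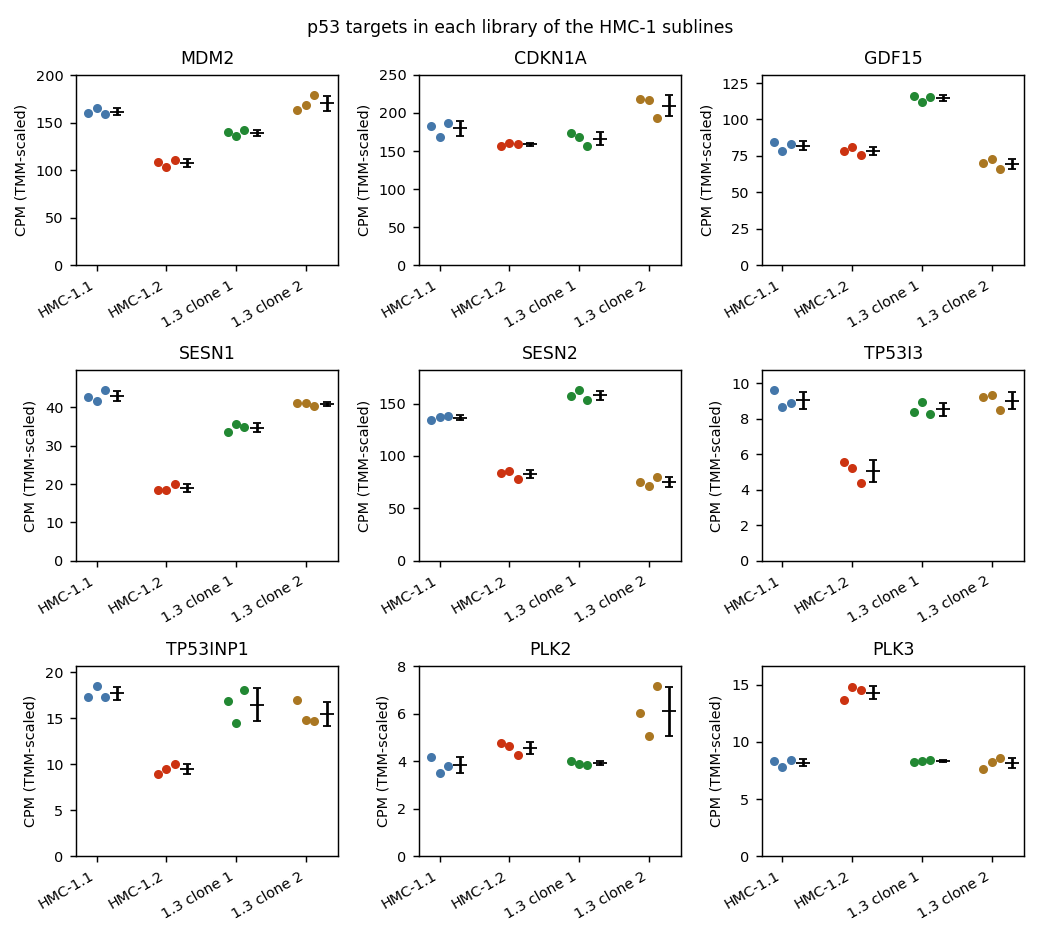
Expression of the 9 p53 targets in each library, as TMM-scaled CPM from 0 on the vertical axis. Points are the 3 libraries of each group, and the black bar beside them is the mean ± SD; HMC-1.2 is the lowest group for SESN1, TP53I3, TP53INP1 and MDM2 and the highest for PLK3.

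MDM2 (chromosome 12, 68808177 to 68845544, plus strand, hg38 as are the positions that follow) encodes the ubiquitin ligase that binds p53 and marks it for degradation, and p53 induces it. Its level was 108, 103 and 111 CPM in the HMC-1.2 libraries, 140, 136 and 142 CPM in clone 1, 163, 169 and 179 CPM in clone 2, and 160, 166 and 159 CPM in HMC-1.1. HMC-1.2 was lowest, clone 1 stood between it and the other groups, and clone 2 and HMC-1.1 overlapped. MDM2 was 1.58-fold higher in clone 2 than in HMC-1.2 (log2 fold change 0.66 ± 0.04 (SE), edgeR, Benjamini-Hochberg adjusted p = 1.7e-10) and 1.503-fold higher in HMC-1.1 (0.59 ± 0.04, adjusted p = 9e-10). That last value sat on the 1.5-fold limit. In clone 1 the difference was 1.295-fold (0.37 ± 0.04, adjusted p = 2.6e-07), and the direct difference between the clones was -0.29 ± 0.04 on the log2 scale with clone 1 lower (adjusted p = 6.2e-06). In FPKM the HMC-1.2 libraries spread more widely, at 36.2, 23.6 and 28.3, than in CPM. RSEM, which made both tables, divides FPKM by a gene length that it estimates in each library.

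The cell cycle brake CDKN1A (chromosome 6, 36676460 to 36687337, plus strand) encodes p21, an inhibitor of cyclin-dependent kinases that arrests cells in G1. Its level was 157, 160 and 159 CPM in HMC-1.2, 174, 169 and 157 CPM in clone 1, 218, 217 and 193 CPM in clone 2, and 183, 169 and 187 CPM in HMC-1.1. Clone 2 was above every other library, and clone 1 overlapped both HMC-1.2 and HMC-1.1. The difference from HMC-1.2 was 0.40 ± 0.05 on the log2 scale in clone 2 (1.32-fold, edgeR, Benjamini-Hochberg adjusted p = 3.1e-06), 0.18 ± 0.05 in HMC-1.1 (adjusted p = 0.0054) and 0.07 ± 0.05 in clone 1 (adjusted p = 0.25), whose 95% interval ran from -0.04 to 0.17. No CDKN1A difference reached 1.5-fold. Of its relatives, CDKN1B, the inhibitor p27, was 23.3 ± 0.403 FPKM in HMC-1.2 (SD, n = 3), and 46.7 ± 0.757 in clone 1, 31.3 ± 0.623 in clone 2, and for HMC-1.1 42.6 ± 0.655. CDKN1B passed the test in clone 1 and HMC-1.1, with log2 fold changes of 0.95 and 0.82, and its value in clone 2 was 0.40.

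The sestrins restrain the growth kinase mTORC1 when amino acids are scarce and help to recycle peroxiredoxins. SESN1 (chromosome 6, 108984309 to 109094846, minus strand) stood at 18.5, 18.4 and 20.1 CPM in HMC-1.2, against 33.5, 35.8 and 34.9 CPM in clone 1, 41.2, 41.2 and 40.4 CPM in clone 2, and 42.6, 41.8 and 44.4 CPM in HMC-1.1. No library of the other groups came near the HMC-1.2 range, and clone 1 was also below clone 2 and HMC-1.1. SESN1 was 1.83-fold higher than HMC-1.2 in clone 1 (log2 fold change 0.87 ± 0.05), 2.16-fold in clone 2 (1.11 ± 0.05) and 2.26-fold in HMC-1.1 (1.18 ± 0.05), with edgeR Benjamini-Hochberg adjusted p of 8.5e-11, 3e-12 and 1.3e-12. Clone 2 and HMC-1.1 differed by -0.07 on the log2 scale with a 95% interval from -0.16 to 0.02 (adjusted p = 0.23).

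SESN2 (chromosome 1, 28259518 to 28282491, plus strand), which is also known as a target of the nutrient stress factor ATF4, followed another order. It was 84.2, 85.3 and 78.2 CPM in HMC-1.2, 158, 162 and 154 CPM in clone 1, 75.0, 70.9 and 80.0 CPM in clone 2, and 134, 137 and 138 CPM in HMC-1.1. Clone 1 and HMC-1.1 were high and did not overlap the other groups, and clone 2 overlapped HMC-1.2. SESN2 was 1.91-fold higher in clone 1 than in HMC-1.2 (log2 fold change 0.94 ± 0.04, edgeR, Benjamini-Hochberg adjusted p = 8e-12) and 1.65-fold higher in HMC-1.1 (0.72 ± 0.04, adjusted p = 3e-10). Clone 2 differed from HMC-1.2 by -0.13 ± 0.04 (adjusted p = 0.02). The clones differed from each other by 2.096-fold (1.07 ± 0.04, adjusted p = 3.9e-12). The third sestrin, SESN3, was lower in level at 1.06 ± 0.165 FPKM in HMC-1.2 (SD, n = 3). SESN3 rose in clone 2 (log2 fold change 0.95) and HMC-1.1 (0.81) and was 0.56 in clone 1, under the 1.5-fold limit.

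GDF15 (chromosome 19, 18374731 to 18389176, plus strand) encodes a secreted stress cytokine of the TGF-beta superfamily that curbs appetite, and ATF4 is also known to induce it. Its level was 78.1, 81.2 and 75.7 CPM in HMC-1.2, 116, 112 and 116 CPM in clone 1, 70.0, 73.1 and 66.1 CPM in clone 2, and 84.7, 78.4 and 82.9 CPM in HMC-1.1. Clone 1 was above every other library, clone 2 was below them, and HMC-1.1 and HMC-1.2 overlapped. GDF15 was 1.46-fold higher in clone 1 than in HMC-1.2 (log2 fold change 0.55 ± 0.04, edgeR, Benjamini-Hochberg adjusted p = 6.1e-09), just under the limit. It was 1.64-fold higher in clone 1 than in clone 2 (0.72 ± 0.04, adjusted p = 4e-10). In HMC-1.1 its difference from HMC-1.2 was 0.07 ± 0.04 (adjusted p = 0.21), with a 95% interval from -0.02 to 0.16.

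TP53I3 (chromosome 2, 24077433 to 24085861, minus strand) encodes a quinone oxidoreductase linked to oxidative stress and TP53INP1 a stress-induced protein that takes part in autophagy and p53 signaling. TP53I3 was 5.58, 5.25 and 4.38 CPM in HMC-1.2, 8.39, 8.95 and 8.30 CPM in clone 1, 9.27, 9.34 and 8.51 CPM in clone 2, and 9.60, 8.66 and 8.89 CPM in HMC-1.1. TP53INP1 was 8.99, 9.51 and 10.1 CPM in HMC-1.2, 16.9, 14.5 and 18.04 CPM in clone 1, 16.98, 14.8 and 14.7 CPM in clone 2, and 17.3, 18.5 and 17.3 CPM in HMC-1.1. For both genes HMC-1.2 was below every other library, and the clones and HMC-1.1 overlapped except that TP53INP1 was lower in clone 2 than in HMC-1.1. TP53I3 rose 1.68-fold in clone 1 (log2 fold change 0.75 ± 0.09), 1.77-fold in clone 2 (0.83 ± 0.09) and 1.78-fold in HMC-1.1 (0.83 ± 0.09), with edgeR Benjamini-Hochberg adjusted p of 3.2e-06, 1.2e-06 and 1.1e-06. TP53INP1 rose 1.73-fold in clone 1 (0.79 ± 0.09), 1.62-fold in clone 2 (0.70 ± 0.09) and 1.86-fold in HMC-1.1 (0.90 ± 0.09), with adjusted p of 4.7e-07, 3e-06 and 1.2e-07. The clones differed from each other by -0.08 for TP53I3 (95% interval -0.26 to 0.11) and by 0.09 for TP53INP1 (-0.08 to 0.26).

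The polo-like kinases PLK2 (chromosome 5, 58453982 to 58460139, minus strand) and PLK3 (chromosome 1, 44800377 to 44805990, plus strand) are stress-responsive relatives of the mitotic kinase PLK1 and are also known as immediate early genes. PLK3, the one of the 9 that fell in all 3 comparisons with HMC-1.2, was 13.7, 14.8 and 14.5 CPM in HMC-1.2, 8.20, 8.36 and 8.41 CPM in clone 1, 7.66, 8.21 and 8.56 CPM in clone 2, and 8.30, 7.81 and 8.42 CPM in HMC-1.1. All HMC-1.2 libraries were above all the others, and the other 3 groups overlapped. PLK3 was 1.72-fold lower in clone 1 than in HMC-1.2 (log2 fold change -0.78 ± 0.07), 1.75-fold lower in clone 2 (-0.81 ± 0.07) and 1.75-fold lower in HMC-1.1 (-0.80 ± 0.07), with edgeR Benjamini-Hochberg adjusted p of 5.1e-08, 4.1e-08 and 4.4e-08. PLK2 was low, at 4.77, 4.65 and 4.28 CPM in HMC-1.2, 4.03, 3.87 and 3.86 CPM in clone 1, 6.05, 5.08 and 7.17 CPM in clone 2, and 4.17, 3.49 and 3.82 CPM in HMC-1.1. In CPM, clone 2 was above all the other libraries, with its highest value in replicate 3, the library with keratin reads. In FPKM it overlapped HMC-1.2. Against HMC-1.2, PLK2 differed by 0.42 ± 0.12 on the log2 scale in clone 2 (edgeR, Benjamini-Hochberg adjusted p = 0.01). The values were -0.22 ± 0.13 in clone 1 (adjusted p = 0.15) and -0.26 ± 0.13 in HMC-1.1 (adjusted p = 0.11). PLK2 was 1.56-fold lower in clone 1 than in clone 2 (-0.64 ± 0.12, adjusted p = 0.0004) and 1.60-fold higher in clone 2 than in HMC-1.1 (0.67 ± 0.12, adjusted p = 0.00043). Without clone 2 replicate 3 these values were -0.51 and 0.54, both with an adjusted p of 0.0036 and both under the 1.5-fold limit. PLK1 and PLK4 were not among the genes changed in any comparison with HMC-1.2.

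**Figure D2:**
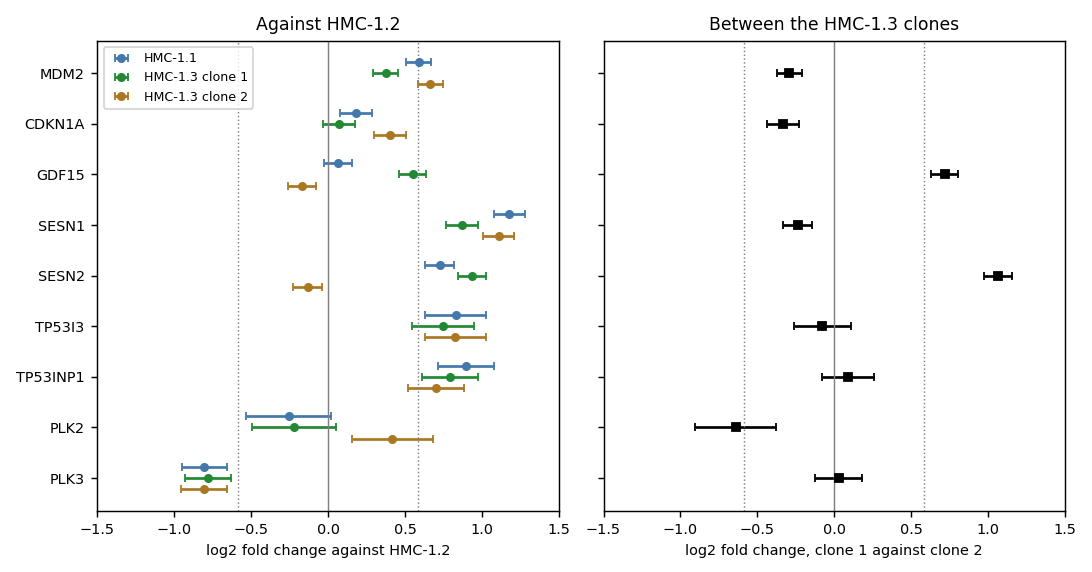
Log2 fold change of each p53 target against HMC-1.2 (left) and of clone 1 against clone 2 (right), with 95% intervals from edgeR and dotted lines at a 1.5-fold change. SESN1, TP53I3 and TP53INP1 lie to the right and PLK3 to the left in all 3 groups, while SESN2, at 1.07, is the farthest from 0 of the 9 between the clones.

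Comparisons without HMC-1.2 gave fewer changes of these genes. In clone 1 against HMC-1.1, edgeR called 0 of the 9 genes, where 1.01% of all genes changed, and DESeq2 and limma also called 0. An unadjusted p under 0.05 was found for 5 of the 9 and for 5004 of all 15944 genes. By the edgeR Benjamini-Hochberg adjusted p alone, 4 of the 9 differed and missed a call by the fold limit. GDF15 (log2 fold change 0.48, adjusted p = 9.2e-07) and SESN2 (0.21, 0.0024) were higher in clone 1. SESN1 (-0.31, 0.00016) and MDM2 (-0.21, 0.00089) were lower. Of all genes, 1415 were higher and 1568 lower by that adjusted p at any fold. In clone 2 against HMC-1.1, PLK2 rose, where 3.04% of all genes did, and SESN2 fell, where 5.15% did. SESN2 was 1.81-fold lower (log2 fold change -0.86 ± 0.04, edgeR, Benjamini-Hochberg adjusted p = 1e-10). Between the clones, SESN2 and GDF15 were higher in clone 1 (8.38% of all genes) and PLK2 was lower (4.25%). The libraries of 8 of the 9 genes did not overlap between clone 1 and HMC-1.2, where 64.2% of all genes did not overlap, and the count was 8 in clone 2 (56.0% of all genes) and 8 in HMC-1.1 (59.9%). Non-overlap was thus common among all genes.

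Across the 12 libraries, SESN1, TP53I3, TP53INP1 and MDM2 varied together, with Pearson r of log2 CPM between 0.84 and 0.96, and PLK3 ran opposite to each of them, with r between -0.90 and -0.97. GDF15 and SESN2 formed the other close pair (r = 0.83), and PLK2 ran opposite to SESN2 (r = -0.76). The points are 4 groups of 3 libraries, so these values mostly restate the group means. The gene most like each by the same measure was MPV17L for MDM2 (r = 0.98), ATP5F1 for CDKN1A (0.98), C6orf48 for GDF15 (0.99), C3AR1 for SESN1 (0.99), PCK2 for SESN2 (0.995), ESD for TP53I3 (0.99), SHOX2 for TP53INP1 (0.98), THBS1 for PLK2 (0.94) and ZNF542 for PLK3 (0.99).

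A wider list of 29 other p53 targets, of which 26 could be tested, gave 8 genes higher and 0 lower in clone 1 than in HMC-1.2, 6 higher and 0 lower in clone 2, and 7 higher and 0 lower in HMC-1.1. Over all genes 11.8%, 7.98% and 10.1% were higher and 8.18%, 8.51% and 7.52% lower in these comparisons. By the adjusted p alone, at any fold, 17 of the 26 were higher in each comparison and 4, 3 and 4 were lower. Of all 15944 genes, 4796, 3937 and 4331 were higher and 4667, 3802 and 4231 lower in that way. The median log2 fold changes of the list were 0.29, 0.23 and 0.30, and this list too was chosen with earlier results of these data known. The genes higher in both clones were BBC3 and FAS, which promote cell death, DRAM1, which acts in autophagy, GADD45A, a growth arrest gene, and TRIM22, an antiviral ubiquitin ligase. BBC3, the gene of the BH3-only protein PUMA, was 19.6 ± 1.1 FPKM in HMC-1.2 (SD, n = 3), 54.1 ± 2.07 in clone 1, 31.5 ± 1.11 in clone 2, and for HMC-1.1 48.4 ± 1.59. Its log2 fold changes against HMC-1.2 were 1.48, 0.69 and 1.297 in that order, and clone 1 exceeded clone 2 by 0.79 ± 0.05 (edgeR, Benjamini-Hochberg adjusted p = 3.4e-10). TRIM22 was 3.00 FPKM in HMC-1.2 and 7.81, 6.36 and 8.82 FPKM in clone 1, clone 2 and HMC-1.1. GADD45A, whose pair of half-sites is printed above, was 6.48, 12.8, 11.7 and 10.4 FPKM in HMC-1.2, clone 1, clone 2 and HMC-1.1. FAS, a death receptor, was 5.61, 9.39, 10.9 and 8.90 FPKM in the same order. DRAM1 was 1.35, 2.21, 2.60 and 2.23 FPKM, and its log2 fold change of 0.55 in HMC-1.1 stayed under the limit.

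CCNG1, a cyclin gene with 1 of its half-site pairs printed, DDB2, a DNA repair gene, and TNFRSF10B, a death receptor, passed the test in clone 1 and not in clone 2. PMAIP1, the gene of the BH3-only protein NOXA, passed in clone 2 and not in clone 1. CCNG1, DDB2 and PMAIP1 missed by the fold limit alone (edgeR, Benjamini-Hochberg adjusted p = 2.8e-10, 4.7e-09 and 2.4e-09), and they also rose in HMC-1.1. The log2 fold changes of CCNG1, DDB2, TNFRSF10B and PMAIP1 were 0.84, 0.75, 0.81 and 0.57 in clone 1 and 0.58, 0.51, 0.12 and 0.69 in clone 2. Of these, the direct difference between the clones passed for TNFRSF10B, at 0.69 ± 0.05 on the log2 scale (edgeR, Benjamini-Hochberg adjusted p = 2e-09). In clone 1 against HMC-1.1, 0 of the 26 were called by edgeR, where 1.01% of all genes were. An unadjusted p under 0.05 was found for 11 of them and for 5004 of all 15944 genes. At an adjusted p under 0.05 and any fold, 4 of the 26 were higher in clone 1 and 0 lower. Of all genes, 1415 were higher and 1568 lower in that way. Among well-known targets that did not pass, BAX, a pore-forming death protein, was 224 FPKM in HMC-1.2, 279 in clone 1, 274 in clone 2, and for HMC-1.1 265. BTG2, an anti-proliferative target, had negative values of -0.42, -0.41 and -0.35 on the log2 scale in clone 1, clone 2 and HMC-1.1. The edgeR Benjamini-Hochberg adjusted p were 1.6e-05, 2.9e-05 and 0.00013.

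**Figure D3:**
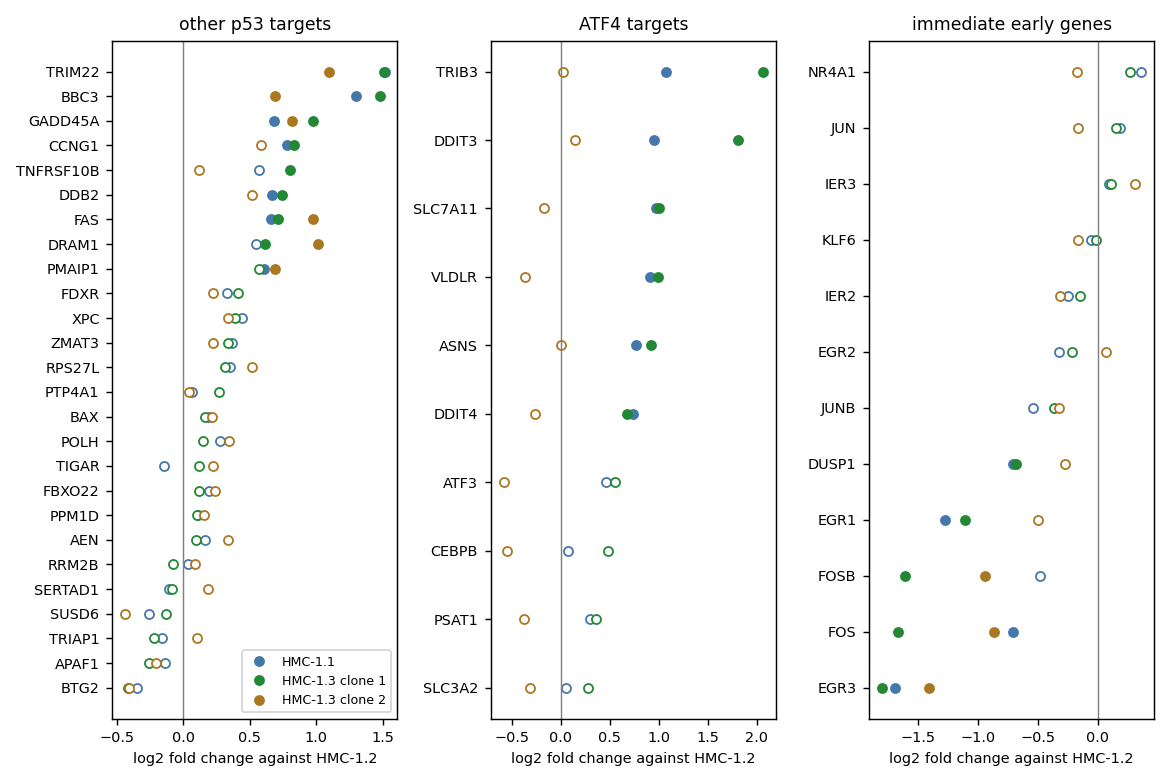
Differences from HMC-1.2 on the log2 fold change scale for tested p53 targets outside the 9, of ATF4 targets and of immediate early genes, with filled points for genes past an adjusted p of 0.05 and a 1.5-fold change. In the ATF4 panel the points of clone 1 and HMC-1.1 lie to the right and 0 of the 10 points of clone 2 are filled.

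The next list holds genes that act on p53 itself. Of 15 regulators of p53, 14 could be tested. HIPK2, a kinase that phosphorylates p53, was lower in clone 1, clone 2 and HMC-1.1 than in HMC-1.2 (log2 fold change -0.99, -0.69 and -0.70). HIPK2 was the 1 gene of the 14 called lower in each comparison, near the 8.18%, 8.51% and 7.52% of all genes. Its level was 5.32 ± 0.287 FPKM in HMC-1.2 (SD, n = 3) and 2.77 to 3.34 FPKM as the mean of the other groups. RCHY1, another ubiquitin ligase of p53, was the 1 gene of the 14 that rose in clone 1 (0.81), where 11.8% of all genes did. Its values of 0.49 in clone 2 and 0.57 in HMC-1.1 stayed under the 1.5-fold limit. The MDM2 partner MDM4 and the damage kinases ATM, ATR, CHEK1 and CHEK2 did not pass the 1.5-fold limit in any of the comparisons with HMC-1.2.

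Targets of ATF4, the factor that also induces SESN2 and GDF15, were listed as a second stress program. Of 12, 10 could be tested: relative to HMC-1.2, 6 rose in clone 1, 6 in HMC-1.1 and 0 in clone 2, and 0 fell in each, where 11.8%, 10.1% and 7.98% of all genes rose. In clone 2, 6 of the 10 had an unadjusted p under 0.05, all below HMC-1.2, where 8628 of all 15944 genes had one. These 6 also had an edgeR Benjamini-Hochberg adjusted p under 0.05 and missed a call by the 1.5-fold limit alone. Of all genes, 3802 were lower at that adjusted p and any fold. Between the clones all 10 of the tested genes were higher in clone 1, where 8.38% of all genes were called higher, with a median log2 difference of 1.08. TRIB3, a pseudokinase, was 39.6 ± 1.46 FPKM in HMC-1.2 (SD, n = 3), 171 ± 2.2 in clone 1, 40.9 ± 0.796 in clone 2, and for HMC-1.1 85.3 ± 6.11. DDIT3, which encodes the stress factor CHOP, was 15.6, 57.5, 17.997 and 31.7 FPKM in the same order. These are the groups in which SESN2 was high and low, with the part of ATF4 in the SESN2 and GDF15 values not tested. Of 12 immediate early genes, which are switched on within minutes of a growth signal, 5 were lower in clone 1, 4 in HMC-1.1 and 3 in clone 2, where 8.18%, 7.52% and 8.51% of all genes were, and 0 were higher. FOS, FOSB and EGR3 were lower in both clones, with FOS at 23.4, 7.53, 13.3 and 14.5 FPKM in HMC-1.2, clone 1, clone 2 and HMC-1.1.

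The neighbors of MDM2 on chromosome 12 were also higher than in HMC-1.2 for the most part. Of 14 tested genes that start within 1 megabase, 12 had a positive log2 fold change against HMC-1.2 in clone 1, 14 in HMC-1.1 and 11 in clone 2. Over all 15944 genes tested, 8184, 8128 and 7970 were positive in that order. The medians of the 14 were 0.50, 0.49 and 0.53. Calls of higher were made for 3, 5 and 6 of them, where 11.8%, 10.1% and 7.98% of all genes were higher. SLC35E3, YEATS4 and RAB3IP were called higher in all 3, and 0 were called lower. The part of the chromosome region in the MDM2 values was not tested. SESN1 had 14 tested neighbors, of which 13, 12 and 13 had a positive value in the same order, with medians of 0.38, 0.38 and 0.19. Among them 3, 5 and 2 were called higher and 0 lower. Each median was below the value of SESN1 itself, and the part of the region in the SESN1 values was not tested. Neighbors were counted for all 9 genes, and the other regions varied. Medians were below 0 in all 3 comparisons beside CDKN1A, GDF15, SESN2 and PLK3. Of 24 tested neighbors of CDKN1A, 6, 6 and 8 had a positive value. Medians were 0.28, 0.30 and 0.25 beside TP53INP1 and 0.05, 0.24 and 0.04 beside TP53I3. PLK2 had 2 tested neighbors.

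**Figure D4:**
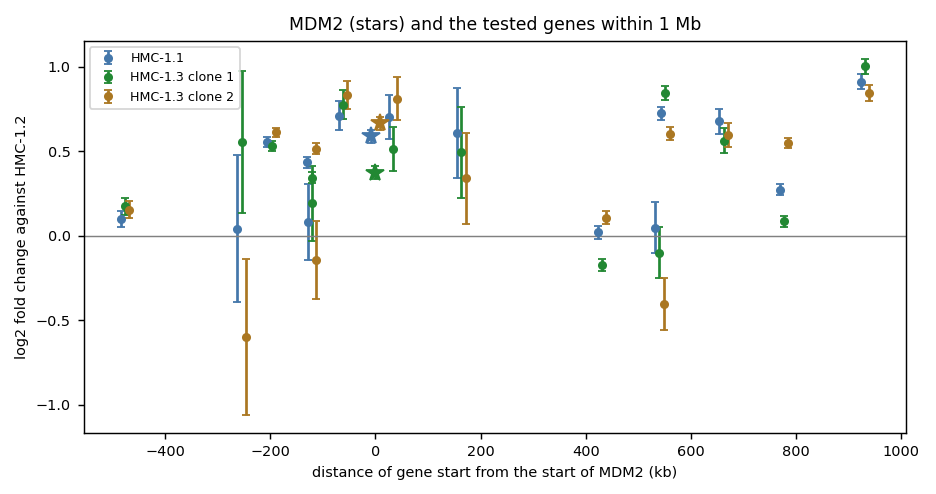
Differences from HMC-1.2 (log2 fold change) of MDM2 (stars) and of the 14 tested genes that start within 1 megabase, by distance of the gene start from that of MDM2 in kilobases, with points of the 3 groups shifted slightly sideways. Bars are standard errors from edgeR, and most points lie above 0.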

How the data were processed

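The authors trimmed reads of stranded polyA libraries with Cutadapt 2.10, aligned them with STAR 2.5.3 to hg38 and quantified genes with RSEM 1.3.0. The deposited tables hold RSEM expected counts and FPKM for the same 58381 genes. Expected counts (7.39% not whole) were rounded here. Whether counting used strand is not given in the sources used here.

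edgeR 4.0.16 (R 4.3.3) was fitted to all 12 libraries with TMM factors (0.974 to 1.02) and filterByExpr, and 15944 genes were tested by quasi-likelihood with Benjamini-Hochberg adjustment. Calls required an adjusted p below 0.05 together with more than a 1.5-fold difference. Alternatives were DESeq2 1.42.0, limma 3.58.1 on log2(FPKM + 1) and log2(FPKM + 0.1), other scalings, filters and terms, a 1.5-fold threshold test and leaving out each library. Leaving out the 3 libraries labelled as resent was added after seeing the data. On simulated data for clone 1 against HMC-1.2 (15681 genes), edgeR recovered 79 of 100 genes changed 2-fold and 94 of 100 changed 4-fold. It made 2 false calls. The simulation changed 200 genes, as many up as down, whereas 3193 genes were called in the real comparison, 1888 of them higher. It therefore gives no rate of false calls for the real data.

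The 9 genes and all lists were chosen with earlier results of these data known. Genes named were the 9, list genes called in both clones or in a count of 5 or fewer, the most alike gene of each, and neighbors of MDM2. CCNG1, DDB2, TNFRSF10B, PMAIP1, BAX, BTG2, MDM4, the damage kinases, TRIB3, DDIT3 and FOS levels were chosen after their values were seen. So were the neighbors of genes other than MDM2. Same-numbered libraries of different groups correlated weakly in their deviations from the group means, from -0.037 to 0.095, with 0 of 18 pairs above 0.1. That highest value was also the highest of all pairs between groups, so a weak pairing by number may remain. Library depth, 29225900 to 43181402 fragments, limits precision for low genes such as PLK2. Coordinates are from Gencode on hg38, with promoters from RefSeq (hg38); of the 9 genes 8 had one.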

Additional observations from a re-analysis of the deposited data

Results flagged for a closer look

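Of the 9 genes, 3 differed between clone 1 and clone 2 by over 1.5-fold in their change against HMC-1.2, by the edgeR test of that difference with Benjamini-Hochberg adjustment. By the adjusted p alone 6 differed, with MDM2, CDKN1A and SESN1 under the 1.5-fold limit. For SESN2 the difference was 1.07 on the log2 scale (adjusted p = 3.9e-12), with all 3 clone 1 libraries above all 3 of clone 2. For GDF15 it was 0.72 (adjusted p = 4e-10), again with no overlap. For PLK2 it was -0.64 (adjusted p = 0.0004), and it was -0.51 without clone 2 replicate 3, the library that also held keratin reads.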

How the results depend on the processing

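The calls of SESN1 and PLK3 against HMC-1.2 held in all 3 groups under every alternative run. MDM2 in HMC-1.1 lost its call under DESeq2, median-ratio factors, a 0.5 CPM filter, a term for resent libraries, both limma fits, the 1.5-fold threshold test, and without HMC-1.1 replicate 2 (0.57) or HMC-1.2 replicate 2 (0.56). GDF15 in clone 1 passed 1.5-fold with library totals only (0.60) and in limma (0.61 and 0.62). The threshold test (glmTreat against 1.5-fold) did not call TP53I3 in clone 1 (adjusted p = 0.11), MDM2 in clone 2 (0.067), TP53INP1 in clone 2 (0.25) or PLK2, and limma on log2(FPKM + 1) left TP53INP1 in clone 2 at 0.50 and PLK2 at 0.54 against HMC-1.1 and -0.48 between the clones.

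The threshold test asks for more than the main rule by construction. It called 1932, 1612 and 1618 of all genes against HMC-1.2 (clone 1, clone 2, HMC-1.1), 9 and 552 against HMC-1.1 (clone 1, clone 2) and 837 between the clones. Of the 9 genes it called 3 in clone 2 against HMC-1.2 and 1 in clone 2 against HMC-1.1, and of the other p53 targets 3 for HMC-1.1 compared with HMC-1.2, 0 in clone 2 against HMC-1.1 and 1 between the clones. Limma on log2(FPKM + 1) called 1902, 1453, 1514, 61, 566 and 969 of all genes in the same order of comparisons and 1 of the 9 in clone 2 against HMC-1.1. With 0.1 added instead it called 1 other p53 target in clone 1 against HMC-1.1. DESeq2 called 87 genes there against 161 by edgeR, and leaving out 1 library gave 107 to 197, the lowest without clone 1 replicate 2. The cause was not tested. Leaving out 1 library gave 1 to 2 of the 9 genes in clone 2 against HMC-1.1, with 1 (SESN2) without clone 2 replicate 3.

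Signs that reversed were of differences near 0. PLK3 in clone 2 against HMC-1.1 (-0.0043) became 0.017 with the term for resent libraries, 0.039 and 0.046 in the limma fits and 0.036 without the resent libraries, and ran from -0.041 to 0.036 with 1 library left out. PLK3 between the clones (0.029) became -0.036 and -0.043 in limma and -0.019 without the resent libraries, and ran from -0.011 to 0.062 with 1 left out. TP53I3 between the clones (-0.079) became 0.066 and 0.074 in limma. With 1 library left out TP53I3 in clone 2 against HMC-1.1 ran from -0.035 to 0.046, and in clone 1 against HMC-1.1 PLK2 ran from -0.032 to 0.099 and PLK3 from -0.014 to 0.044.

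The replicate numbers paired the libraries weakly at most (6 of 12 libraries were closest to a same-numbered one). A replicate block gave 3185, 2637 and 2799 genes against HMC-1.2, where the main fit gave 3193, 2630 and 2803, and changed no call of the 9 genes. Depth limits PLK2 most, the lowest of the 9.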
